A study of Homo sapiens with 12 samples.

Results

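Nucleolar ribosome biogenesis genes encode the machinery that transcribes ribosomal RNA and turns it into ribosomal subunits. Here 42 of them were read. Their names were listed for their role and their tie to growth and MYC, with earlier results of these data known. The cells were LNCaP, a prostate cancer cell line that responds to androgen and was established from a metastasis in a lymph node. All 42 were among the 36137 gene symbols of the count table, and all 42 were among the 18468 genes with enough reads to be tested. Transfection was with siRNA to PXN (paxillin, a scaffold protein of focal adhesions) or with the non-specific control siRNA, and the cells then received 2.5 nM dihydrotestosterone (DHT) or its ethanol vehicle. The 4 groups, with 3 libraries each, were PXN siRNA with DHT, PXN siRNA with vehicle, non-specific siRNA with DHT, and non-specific siRNA with vehicle. Every group shared the 48 h transfection, the 12 h without serum and the 24 h with DHT or ethanol. The model is a single cell line under transient knockdown, and the sources used here do not give the number or the sequence of its siRNAs. Labels number the libraries of a group and do not state whether each was its own culture, so a p-value here reflects only the spread among libraries, which may be technical.

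In the nucleolus, RNA polymerase I copies the repeated ribosomal DNA into a long precursor. Box C/D and H/ACA small nucleolar ribonucleoproteins (snoRNPs) then methylate and pseudouridylate it, and large assemblies of helicases, nucleases and scaffold proteins cut and fold it into the small and the large ribosomal subunit. The pathway is known for its scaling with cell growth, and many of its genes are classical targets of the transcription factor MYC, which binds the E-box CACGTG as a dimer with MAX.

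Promoter sequence is shown first, because the E-box is what ties these genes to MYC in textbooks. Windows of 300 bases, 250 before and 50 after an annotated transcription start, were taken from RefSeq on GRCh38.p14 and searched for CACGTG, a palindrome that reads the same on both strands. RefSeq windows matched 35 of the 42 genes by symbol, and POLR1E, NOLC1, NOP58, RRP12, BOP1, RRP1B and DDX18 had no window. Of the 35 genes, 17 (48.6%) held CACGTG in at least 1 window, against 12.4% of the tested genes with a window and 8.77% of all 27305 RefSeq symbols. Among 117 other genes of the pathway with a window the share was 25.6%. Because the list was drawn up partly for a tie to MYC, part of this excess may come from the choice of genes. Counted by window, as some genes have several starts, the share was 38.6% of the 44 windows of the 35 genes and 7.26% of all 35116 windows. The 4 genes with the smallest p under PXN siRNA with vehicle among those holding the E-box are printed 5′ to 3′ on the strand of the gene, with CACGTG in capitals: NOP14 from chr4:2963357-2963656 (minus strand), PES1 from chr22:30591861-30592160 (minus strand), MRTO4 from chr1:19251555-19251854 (plus strand) and PNO1 from chr2:68157638-68157937 (plus strand).
NOP14: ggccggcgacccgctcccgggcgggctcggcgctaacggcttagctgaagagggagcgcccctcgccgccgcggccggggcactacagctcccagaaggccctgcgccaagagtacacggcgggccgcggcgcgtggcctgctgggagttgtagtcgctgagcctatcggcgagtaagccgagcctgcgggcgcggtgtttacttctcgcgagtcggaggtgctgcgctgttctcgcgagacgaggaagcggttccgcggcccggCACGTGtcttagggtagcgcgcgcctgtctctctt
PES1: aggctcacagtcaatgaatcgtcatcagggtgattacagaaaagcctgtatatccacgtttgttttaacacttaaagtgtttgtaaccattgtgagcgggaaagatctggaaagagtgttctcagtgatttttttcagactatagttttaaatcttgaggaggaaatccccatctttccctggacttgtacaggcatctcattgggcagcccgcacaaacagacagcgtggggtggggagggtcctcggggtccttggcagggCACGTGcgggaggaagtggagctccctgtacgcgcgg
MRTO4: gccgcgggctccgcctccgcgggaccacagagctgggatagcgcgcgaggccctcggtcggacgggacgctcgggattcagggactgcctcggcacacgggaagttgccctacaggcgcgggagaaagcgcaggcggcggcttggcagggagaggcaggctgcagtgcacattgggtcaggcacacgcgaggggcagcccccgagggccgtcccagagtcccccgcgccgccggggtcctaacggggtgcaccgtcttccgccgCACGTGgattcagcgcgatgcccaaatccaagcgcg
PNO1: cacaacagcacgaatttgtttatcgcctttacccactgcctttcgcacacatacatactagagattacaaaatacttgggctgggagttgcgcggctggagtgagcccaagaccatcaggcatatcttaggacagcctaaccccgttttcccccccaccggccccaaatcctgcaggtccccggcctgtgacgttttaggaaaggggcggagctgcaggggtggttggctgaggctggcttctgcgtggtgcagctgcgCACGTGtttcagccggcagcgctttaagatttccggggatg

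In these 4 windows the first base of CACGTG lay 16 (NOP14), 14 (PES1), 15 (MRTO4) and 10 (PNO1) bases into the transcript, counting the first transcribed base as 1. Of the 18 matches in the 17 genes, 11 lay at or after the annotated start and 16 lay within 50 bases of it, with a range of -170 to 36. Across the 2821 matches in all RefSeq windows, 11.1% lay at or after the start and 36.9% lay within 50 bases of it. NOP10 held 2 matches in its window. The other motifs, searched on both strands, were also held by a larger share of the 35 genes with a window than of all RefSeq symbols. The shares were 42.9% against 13.5% for the variant E-box CACGCG and 31.4% against 12.2% for the ETS core CCGGAAG. For the palindrome TCGCGA they were 20% against 3.76%. Among the 117 other pathway genes with a window they were 30.8%, 44.4% and 11.1%, so the ETS core was more frequent there than in the 35 genes. Among tested genes averaging 5 CPM or more the shares were higher than over all symbols too, at 13% for the canonical E-box, 23.3% for its variant, 24.4% for the ETS core and 7.6% for the palindrome. A match is a description of the letters and not a bound site, and the base composition of these windows was not compared.

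The 42 genes were abundant. Levels are given as CPM, a count relative to the library total, after adjustment of the totals by the trimmed mean of M values (TMM), and 1 CPM stood for 33.7 to 38.3 counts. The median over the 42 gene means was 79.4 CPM, against 12.8 CPM over all tested genes, and the lowest of the 42, PPAN, still had at least 117 counts in every library. Division by kilobases of exon, over all annotated transcripts of a gene together, lets genes be set side by side only roughly. On this scale NOP10 had 247 ± 13.4 CPM per kb with PXN siRNA and 279 ± 16.3 CPM per kb with non-specific siRNA under vehicle (SD, n = 3 each). NPM1, on the same scale, had 156 ± 23.8 and 259.6 ± 18.0 CPM per kb. PPAN stood at the other end with 1.29 ± 0.0865 and 2.35 ± 0.344 CPM per kb.

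The knockdown and the libraries were checked before the genes were compared. PXN itself was at 14.9 to 21.2 CPM in the 6 PXN siRNA libraries and at 99.7 to 113 CPM in the 6 non-specific siRNA libraries. Library totals lay between 34321000 and 38633456 counts, and the mitochondrial share was 8.13% to 8.95% with PXN siRNA and 4.69% to 7.55% with non-specific siRNA. Of the LNCaP markers, HOXB13 had 274, 312 and 312 CPM with PXN siRNA and 539, 521 and 568 CPM with non-specific siRNA under vehicle. Of 18 markers of other cell types 9 had enough reads to be tested. Of the 9 others, 7 were in the table, with at most 6 counts in any library (KRT5, TP63, PECAM1, PTPRC, CD68, LYZ and CHGA), and none of these 7 was at 0 in all 12 libraries. In a bulk library, fewer cells of a type and less RNA per cell cannot be told apart.

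Under vehicle nearly the whole set was lower with PXN siRNA: 40 of the 42 genes fell and none rose at an adjusted p under 0.05 (edgeR quasi-likelihood test, Benjamini-Hochberg adjustment over all tested genes). PXN siRNA was broad in these cells, with 50.2% of all tested genes called, 23.9% higher and 26.3% lower. Among tested genes averaging 5 CPM or more, the range in which all 42 lie, 38.3% were lower and 23.4% were higher. The 42 genes had a median log2 fold change of -0.52, against 0.02 over all tested genes and -0.08 over genes of at least 5 CPM. Among the 40 genes called, the change ran from NOP16, which fell by 51.2%, to NOP10, which fell by 11.5%. UBTF and RRP12 did not pass the test. For 39 genes every PXN siRNA library lay below every non-specific siRNA library, an arrangement held by 29.6% of all tested genes, and POLR1A, UBTF and RRP12 overlapped.

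Under DHT the picture by count was alike: 40 genes fell and none rose, with a median log2 fold change of -0.60. The background in this comparison was 51.8% of tested genes called, 25% higher and 26.7% lower, and 39.5% lower among genes of at least 5 CPM. The median was 0.03 over all tested genes and -0.09 over genes of at least 5 CPM. Here UBTF and NOP10 did not pass. The comparisons under vehicle and under DHT share no library, and 39 of the 42 genes were called lower in both, against 23.1% of all tested genes and 35% of genes of at least 5 CPM. Under DHT 39 genes were fully separated downward, against 30.4% of all tested genes, and UBTF, NOP10 and BOP1 overlapped.

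**Figure D1:**
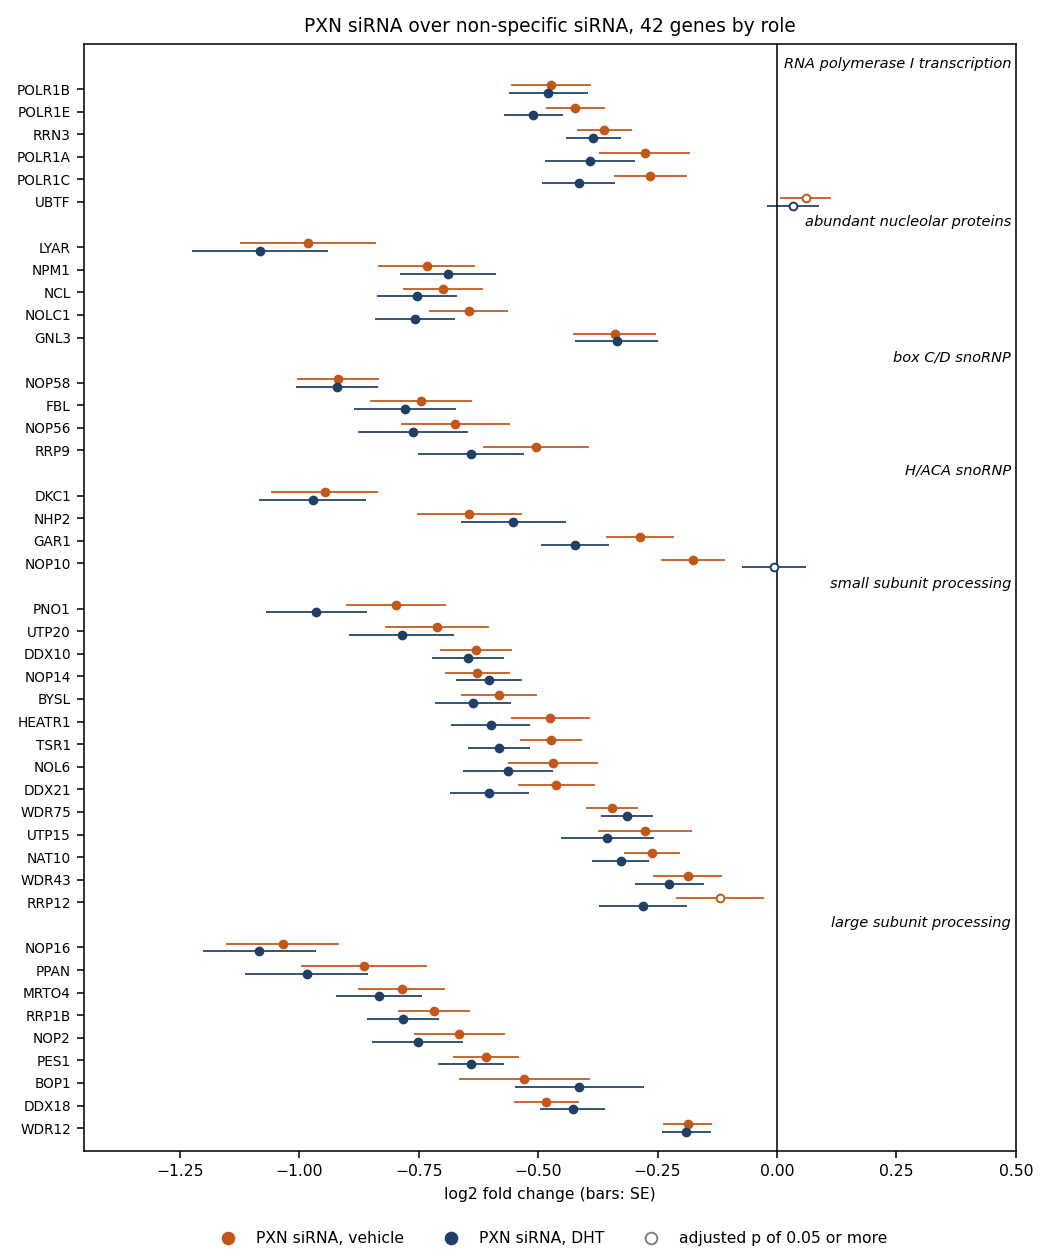
The log2 fold change of each of the 42 genes, PXN siRNA over non-specific siRNA, is on the horizontal axis with its SE (bars), under vehicle (orange) and under DHT (blue), with genes grouped by role and filled points for an adjusted p under 0.05. All points but those of UBTF lie below 0, and NOP16 and LYAR reach furthest, at -1.03 and -0.98 under vehicle.

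The first group carries out transcription by RNA polymerase I. In it, 5 of 6 genes fell under vehicle (median log2 fold change -0.32) and 5 of 6 under DHT (median -0.40), the group with the smallest median shift in both conditions. POLR1E (chr9:37485935-37503697, plus strand), a polymerase I subunit of the dimer that acts in initiation and elongation, had 32.5, 36.4 and 34.5 CPM in the PXN siRNA libraries and 45.7, 44.5 and 48.3 CPM in the non-specific siRNA libraries under vehicle. Under DHT it had 35.4, 37.3 and 34.9 CPM with PXN siRNA and 49.1, 51.4 and 52.7 CPM with non-specific siRNA. All 6 PXN siRNA libraries were below all 6 non-specific siRNA libraries, and POLR1E fell in both comparisons, with log2 fold changes of -0.42 (SE 0.0617) under vehicle (edgeR adjusted p = 5.85e-05) and -0.51 (SE 0.0615) under DHT (adjusted p = 9.73e-06).

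RRN3 (chr16:15060022-15094317, minus strand), the initiation factor TIF-IA that recruits polymerase I to the ribosomal promoter and is known to respond to growth signals, had 70.1, 76.4 and 75.5 CPM with PXN siRNA and 97.1, 89.1 and 99.1 CPM with non-specific siRNA under vehicle. With DHT its levels were 73.5, 73.5 and 73.8 CPM with PXN siRNA and 95.7, 92.7 and 99.6 CPM with non-specific siRNA. The groups did not overlap, and the 3 PXN siRNA libraries under DHT were almost level. The log2 fold change was -0.36 (SE 0.058) under vehicle (edgeR adjusted p = 0.000132) and -0.38 (SE 0.0581) under DHT (adjusted p = 7.37e-05). The annotation names 2 pseudogenes after RRN3, and PDXDC1 overlaps it on the opposite strand, so reads of these genes may be shared.

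UBTF (chr17:44205033-44221626, minus strand), the HMG-box protein that coats active ribosomal DNA, is described because it stood out once its values were seen. It had 138, 133 and 132 CPM with PXN siRNA and 127, 127 and 132 CPM with non-specific siRNA under vehicle. Under DHT it had 132, 133 and 133 CPM with PXN siRNA and 124, 128 and 137 CPM with non-specific siRNA. The groups overlapped in both conditions, and the log2 fold changes were 0.06 (SE 0.0538) (edgeR adjusted p = 0.374) and 0.03 (SE 0.0538) (adjusted p = 0.623). Scaled by upper quartiles in place of TMM, UBTF was called higher in both comparisons, at 0.16 under vehicle (adjusted p = 0.0207) and 0.14 under DHT (adjusted p = 0.0416). The remaining subunits all fell. POLR1B, which forms the catalytic core with POLR1A, had log2 fold changes of -0.47 under vehicle and -0.48 under DHT, and POLR1A had -0.28 and -0.39. POLR1C, a subunit shared with RNA polymerase III, had -0.27 and -0.41. The vehicle call of POLR1A was lost without non-specific siRNA replicate 2 (edgeR adjusted p = 0.0718) and without PXN siRNA replicate 1 (adjusted p = 0.0697).

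The abundant nucleolar proteins fell without exception, 5 of 5 in each condition, with medians of -0.70 under vehicle and -0.75 under DHT. Nucleolin, encoded by NCL (chr2:231453531-231483641, minus strand), binds the nascent precursor and was the member with the most reads. Its level was 548, 676 and 596 CPM with PXN siRNA and 959, 944 and 1052 CPM with non-specific siRNA under vehicle, and 583, 674 and 609.9 CPM against 1009, 1043 and 1095 CPM under DHT. No PXN siRNA library reached the lowest non-specific siRNA library. NCL fell by 38.4% under vehicle (log2 fold change -0.70 (SE 0.084), edgeR adjusted p = 1.01e-05) and by 40.7% under DHT (log2 fold change -0.75 (SE 0.084), adjusted p = 4.9e-06).

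NOLC1 (chr10:102152176-102163871, plus strand), or Nopp140, a chaperone that shuttles snoRNPs to the nucleolus, had 206, 259.5 and 224 CPM with PXN siRNA and 345, 357 and 376 CPM with non-specific siRNA under vehicle. Its DHT values were 224, 258 and 227 CPM with PXN siRNA and 385, 405 and 408 CPM with non-specific siRNA. The libraries again fell into separate ranges by siRNA. Its log2 fold change was -0.65 (SE 0.083) under vehicle (edgeR adjusted p = 1.87e-05) and -0.76 (SE 0.0831) under DHT (adjusted p = 4.16e-06). NPM1, the nucleophosmin chaperone of ribosome export, had log2 fold changes of -0.73 and -0.69 under vehicle and DHT, with the limit that 45 pseudogenes carry its name and may take or give reads. The least affected of this group was GNL3, the GTPase nucleostemin, at -0.34 and -0.34. LYAR, a zinc-finger protein of the nucleolus, had the largest drop of the group, at -0.98 and -1.08, with a mean of 9.34 ± 1.99 CPM with PXN siRNA and 18.4 ± 2.50 CPM with non-specific siRNA under vehicle (SD, n = 3 each).

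**Figure D2:**
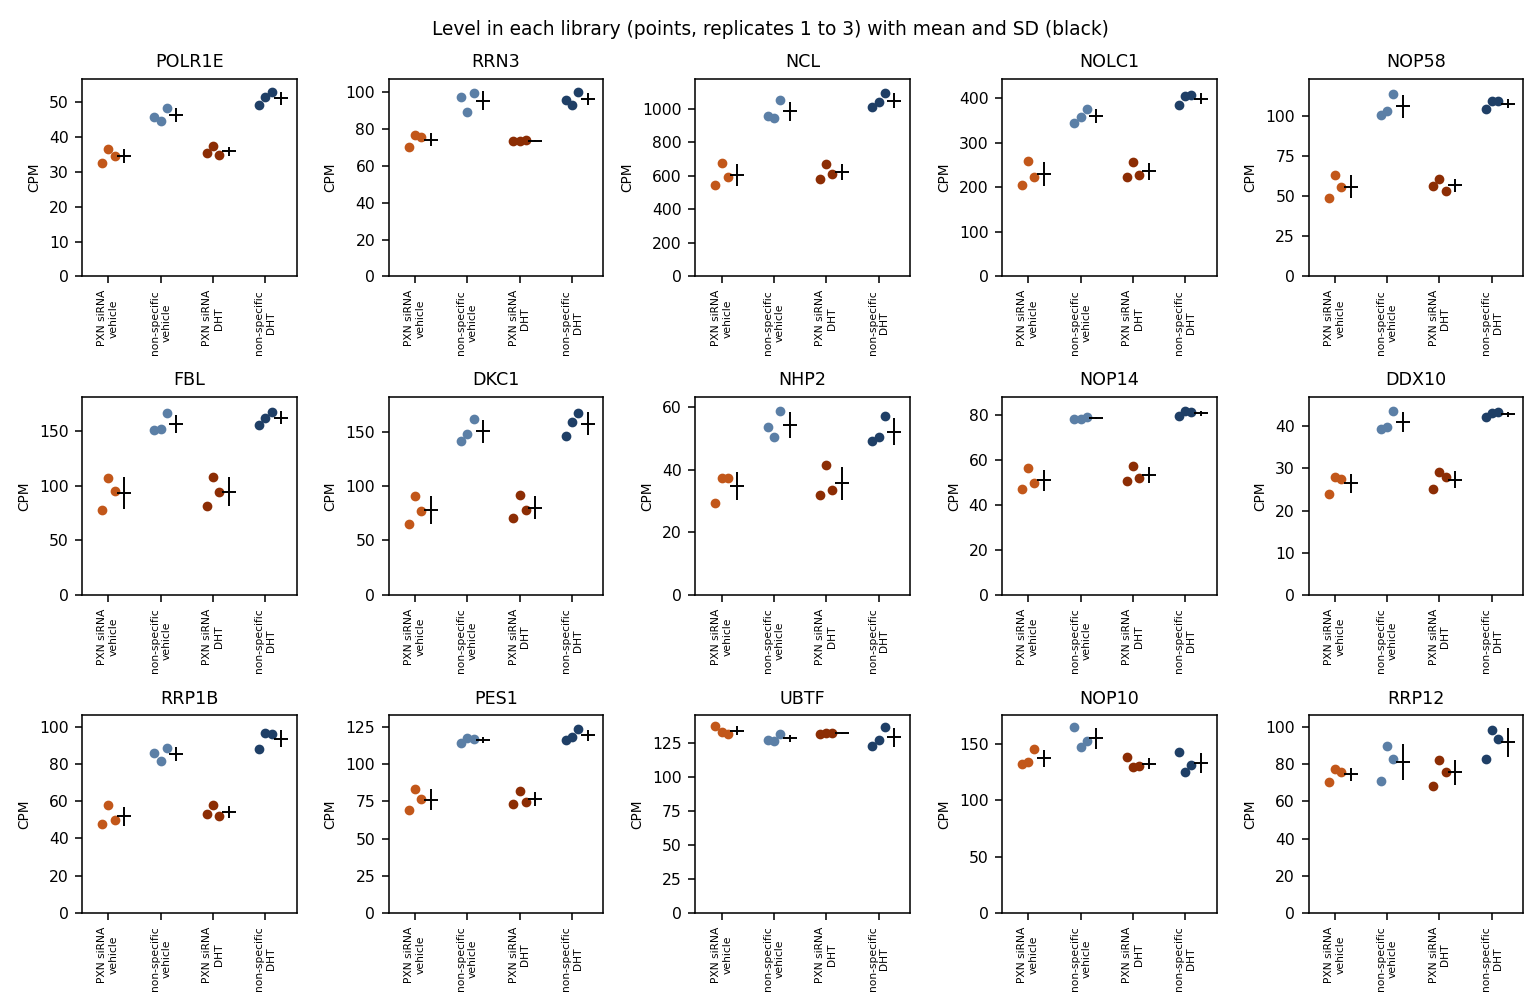
CPM on the vertical axis, from 0, in every library of the 4 groups for the 12 genes with the smallest p in their role and for UBTF, NOP10 and RRP12, with points for replicates 1 to 3 and the mean and SD in black. For the 12 genes the PXN siRNA points lie below the non-specific siRNA points under both treatments, and for UBTF they overlap.

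All 4 genes of the box C/D snoRNP, the particle that methylates the ribose of ribosomal RNA, fell in both conditions, with medians of -0.71 under vehicle and -0.77 under DHT. NOP58 (chr2:202265716-202303666, plus strand), a core scaffold of the particle, had the smallest adjusted p of the 42 genes in both comparisons. It was at 48.7, 63.5 and 56.0 CPM with PXN siRNA and 101, 104 and 114 CPM with non-specific siRNA under vehicle, and at 56.7, 61.1 and 53.0 CPM against 104, 109.7 and 109 CPM under DHT. The ranges were far apart, and the log2 fold changes were -0.92 (SE 0.0863) under vehicle (edgeR adjusted p = 1.1e-06) and -0.92 (SE 0.0864) under DHT (adjusted p = 1.04e-06).

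FBL (chr19:39834458-39846414, minus strand) encodes fibrillarin, the methyltransferase of the same particle. With vehicle it had 78.2, 107 and 94.8 CPM under PXN siRNA and 151, 152 and 166 CPM under non-specific siRNA. With DHT it had 81.5, 108 and 94.5 CPM under PXN siRNA and 156, 162 and 168 CPM under non-specific siRNA. Replicate 1 was lowest and replicate 2 highest among the PXN siRNA libraries in both conditions, and no library crossed over. FBL changed by -0.75 (SE 0.107) on the log2 scale under vehicle (edgeR adjusted p = 4.96e-05) and -0.78 (SE 0.107) under DHT (adjusted p = 3.18e-05). NOP56, the scaffold paired with NOP58, changed by -0.67 and -0.76 under vehicle and DHT, and RRP9, a protein specific to the U3 particle, by -0.50 and -0.64. NOP56 and NOP58 host snoRNA genes in their introns, which the table lists separately.

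The H/ACA snoRNP, which pseudouridylates ribosomal RNA and whose proteins also sit on telomerase RNA, was uneven: 4 of 4 genes fell under vehicle (median -0.47) and 3 of 4 under DHT (median -0.49). DKC1 (chrX:154762742-154777689, plus strand), dyskerin, the pseudouridine synthase, had 65.5, 91.1 and 77.5 CPM with PXN siRNA and 141, 148 and 162 CPM with non-specific siRNA under vehicle. Under DHT its levels were 71.0, 91.5 and 78.5 CPM with PXN siRNA and 146, 159 and 168 CPM with non-specific siRNA. There was a wide gap between the siRNA groups, and DKC1 fell by 48.1% under vehicle (log2 fold change -0.95 (SE 0.112), edgeR adjusted p = 8.63e-06) and 49.0% under DHT (log2 fold change -0.97 (SE 0.112), adjusted p = 6.35e-06).

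NHP2 (chr5:178149460-178153967, minus strand), a core protein of the particle, had 29.4, 37.4 and 37.2 CPM with PXN siRNA and 53.7, 50.4 and 58.7 CPM with non-specific siRNA under vehicle, and 31.9, 41.5 and 33.3 CPM against 49.2, 50.3 and 57.0 CPM under DHT. Its ranges did not overlap, with log2 fold changes of -0.64 (SE 0.11) (edgeR adjusted p = 0.000218) and -0.55 (SE 0.11) (adjusted p = 0.000712). RMND5B overlaps NHP2 on the opposite strand and 2 pseudogenes carry its name. GAR1, the protein that joins the particle last, fell in both comparisons, with log2 fold changes of -0.29 under vehicle and -0.42 under DHT.

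NOP10 (chr15:34341713-34343177, minus strand), the smallest protein of the H/ACA core, was the exception of its group and was picked out after its values were seen. Under vehicle it had 132, 134 and 146 CPM with PXN siRNA and 165, 147 and 152.6 CPM with non-specific siRNA. Under DHT it had 138, 129 and 129.8 CPM with PXN siRNA and 142, 125 and 131 CPM with non-specific siRNA. The vehicle ranges lay next to each other without overlap and the DHT ranges overlapped. NOP10 fell under vehicle, with a log2 fold change of -0.18 (SE 0.0665) (edgeR adjusted p = 0.039), and its value under DHT was -0.01 (SE 0.0666) (adjusted p = 0.95). The vehicle call was lost under 11 of 21 alternative settings, among them the fits without non-specific siRNA replicate 1 (edgeR adjusted p = 0.134) or 3 (0.058) and without PXN siRNA replicate 1 (0.104) or 2 (0.0823). The difference between these effects did not pass its own test (interaction 0.17 (SE 0.0941), edgeR adjusted p = 1).

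Small subunit processing is the largest group, with 13 of 14 genes lower under vehicle (median -0.47) and 14 of 14 under DHT (median -0.59). NOP14 (chr4:2937933-2963385, minus strand), a scaffold of the small subunit processome, had 46.9, 56.2 and 49.6 CPM with PXN siRNA and 78.5, 78.3 and 79.2 CPM with non-specific siRNA under vehicle. Under DHT it had 50.6, 57.3 and 51.9 CPM with PXN siRNA and 79.6, 81.7 and 81.4 CPM with non-specific siRNA. The non-specific siRNA libraries lay close together and all were above the PXN siRNA libraries. The log2 fold changes of NOP14, whose window holds the E-box, were -0.63 (SE 0.0684) (edgeR adjusted p = 4.21e-06) and -0.60 (SE 0.0684) (adjusted p = 5.64e-06). NOP14-AS1 overlaps it on the opposite strand, and the sources used here do not say whether counting used strand.

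DDX10 (chr11:108665025-108940930, plus strand), an RNA helicase of the same assembly, had 23.9, 28.0 and 27.4 CPM with PXN siRNA and 39.4, 39.8 and 43.7 CPM with non-specific siRNA under vehicle, and 25.2, 29.1 and 27.9 CPM against 42.1, 43.0 and 43.4 CPM under DHT. The libraries were separate by siRNA, and the log2 fold changes were -0.63 (SE 0.075) (edgeR adjusted p = 9.27e-06) and -0.65 (SE 0.0749) (adjusted p = 6.73e-06). PNO1, a factor that guards the cleavage site at the end of the small subunit RNA, showed the largest shift of the group, -0.80 under vehicle and -0.96 under DHT. UTP20, a giant scaffold of the processome, had -0.71 and -0.79, and BYSL, bystin, which acts late in maturation of the subunit, had -0.58 and -0.64. All of these fell in both comparisons. Another late factor, TSR1, changed by -0.47 and -0.58, and the helicase DDX21 by -0.46 and -0.60. The acetyltransferase NAT10 was at -0.26 and -0.33, and it too passed the test in both.

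HEATR1, WDR43, WDR75 and UTP15 belong to the subcomplex that also aids polymerase I transcription, and NOL6 to a neighbouring module. HEATR1 had log2 fold changes of -0.47 under vehicle and -0.60 under DHT, and NOL6 of -0.47 and -0.56. WDR75 and UTP15 were at -0.35 and -0.28 under vehicle, and WDR43, at -0.19, had the smallest fall called in the group. Each of the 5 fell in both comparisons. The vehicle call of WDR43 was lost under 8 of 21 alternative settings, including those without non-specific siRNA replicate 3 (edgeR adjusted p = 0.127) and without PXN siRNA replicate 1 (0.118), and its call under DHT was lost without non-specific siRNA replicate 3 (0.0533). UTP15 missed the threshold under vehicle without non-specific siRNA replicate 2 (0.0511) or 3 (0.0615) and without PXN siRNA replicate 1 (0.0821). RRP12 (chr10:97356358-97426076, minus strand), an export factor described after its values were seen, had 70.6, 77.4 and 75.9 CPM with PXN siRNA and 70.8, 89.9 and 82.5 CPM with non-specific siRNA under vehicle. Under DHT it had 68.5, 82.3 and 75.7 CPM with PXN siRNA and 83.0, 98.4 and 93.7 CPM with non-specific siRNA. The vehicle ranges overlapped, with a log2 fold change of -0.12 (SE 0.0919) (edgeR adjusted p = 0.298). Under DHT it fell, with -0.28 (SE 0.0919) (edgeR adjusted p = 0.0193), and the interaction was not called. RRP12 passed under vehicle without non-specific siRNA replicate 1 (adjusted p = 0.0498), and missed under DHT without non-specific siRNA replicate 2 (0.0504) or PXN siRNA replicate 1 (0.0578).

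All 9 genes of large subunit processing fell in both conditions, with medians of -0.67 under vehicle and -0.75 under DHT. RRP1B (chr21:43659548-43696079, plus strand), a nucleolar scaffold and cofactor of phosphatase 1, had 47.7, 57.8 and 50.02 CPM with PXN siRNA and 85.8, 81.3 and 88.7 CPM with non-specific siRNA under vehicle. With DHT it had 53.0, 58.1 and 52.0 CPM with PXN siRNA and 88.1, 96.7 and 96.0 CPM with non-specific siRNA. Every PXN siRNA library was below every non-specific siRNA library, with log2 fold changes of -0.72 (SE 0.0752) (edgeR adjusted p = 2.91e-06) and -0.78 (SE 0.0751) (adjusted p = 1.28e-06).

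PES1, BOP1 and WDR12 form the PeBoW complex, which is needed to process the large subunit RNA. PES1 (chr22:30576625-30607083, minus strand) had 69.0, 83.1 and 76.5 CPM with PXN siRNA and 114, 118 and 117 CPM with non-specific siRNA under vehicle, and 73.0, 82.3 and 74.7 CPM against 116, 118 and 124 CPM under DHT. The ranges stood apart, and PES1 fell, with log2 fold changes of -0.61 (SE 0.0693) (edgeR adjusted p = 6.24e-06) and -0.64 (SE 0.0694) (adjusted p = 3.74e-06). Its partners moved by different amounts. BOP1 had log2 fold changes of -0.53 (SE 0.137) under vehicle and -0.41 (SE 0.136) under DHT, and WDR12 had -0.19 (SE 0.0516) and -0.19 (SE 0.0518). The call of BOP1 under DHT was lost without non-specific siRNA replicate 2 (edgeR adjusted p = 0.0677) and without PXN siRNA replicate 1 (0.0668).

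NOP16, a factor of the early large subunit particle, had the largest fall of all 42 genes. Its levels were 16.2, 21.4 and 18.6 CPM with PXN siRNA and 35.5, 38.4 and 41.3 CPM with non-specific siRNA under vehicle, and 17.2, 23.4 and 21.7 CPM against 39.5, 45.2 and 47.4 CPM under DHT. The PXN siRNA libraries were near the middle of the span between 0 and the non-specific siRNA libraries, with log2 fold changes of -1.03 (SE 0.118) (edgeR adjusted p = 6.54e-06) and -1.08 (SE 0.118) (adjusted p = 3.82e-06). PPAN had log2 fold changes of -0.86 and -0.98, though it shares its strand and locus with P2RY11. MRTO4, which prepares the ribosomal stalk, was at -0.79 and -0.83, and the RNA methyltransferase NOP2 at -0.67 and -0.75. The helicase DDX18, after which 5 pseudogenes are named, was at -0.48 and -0.43.

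The libraries of a group were not evenly spread. With PXN siRNA under vehicle, replicate 1 was the lowest of its group for 39 of the 42 genes and replicate 2 was the highest for 36. With PXN siRNA under DHT, replicate 1 was lowest for 33 and replicate 2 highest for 37. The non-specific siRNA groups were uneven too: replicate 1 was lowest for 38 genes under DHT and for 26 under vehicle, and replicate 3 was highest for 26 and 27. Summed over the 42 genes, the 3 libraries with PXN siRNA and vehicle held 3801, 4641 and 4242 CPM, against 5964, 6104 and 6521 CPM with non-specific siRNA and vehicle. Under DHT the sums were 4017, 4590 and 4258 CPM with PXN siRNA, against 6131, 6533 and 6723 CPM with non-specific siRNA. The level of PXN in replicates 1, 2 and 3 with PXN siRNA was 15.2, 21.2 and 14.9 CPM under vehicle and 19.96, 18.06 and 16.58 CPM under DHT. The replicate with the most PXN had the highest sum under vehicle and the lowest sum under DHT. Without PXN siRNA vehicle replicate 1, 36 genes were lower under vehicle with a median of -0.46.

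**Figure D3:**
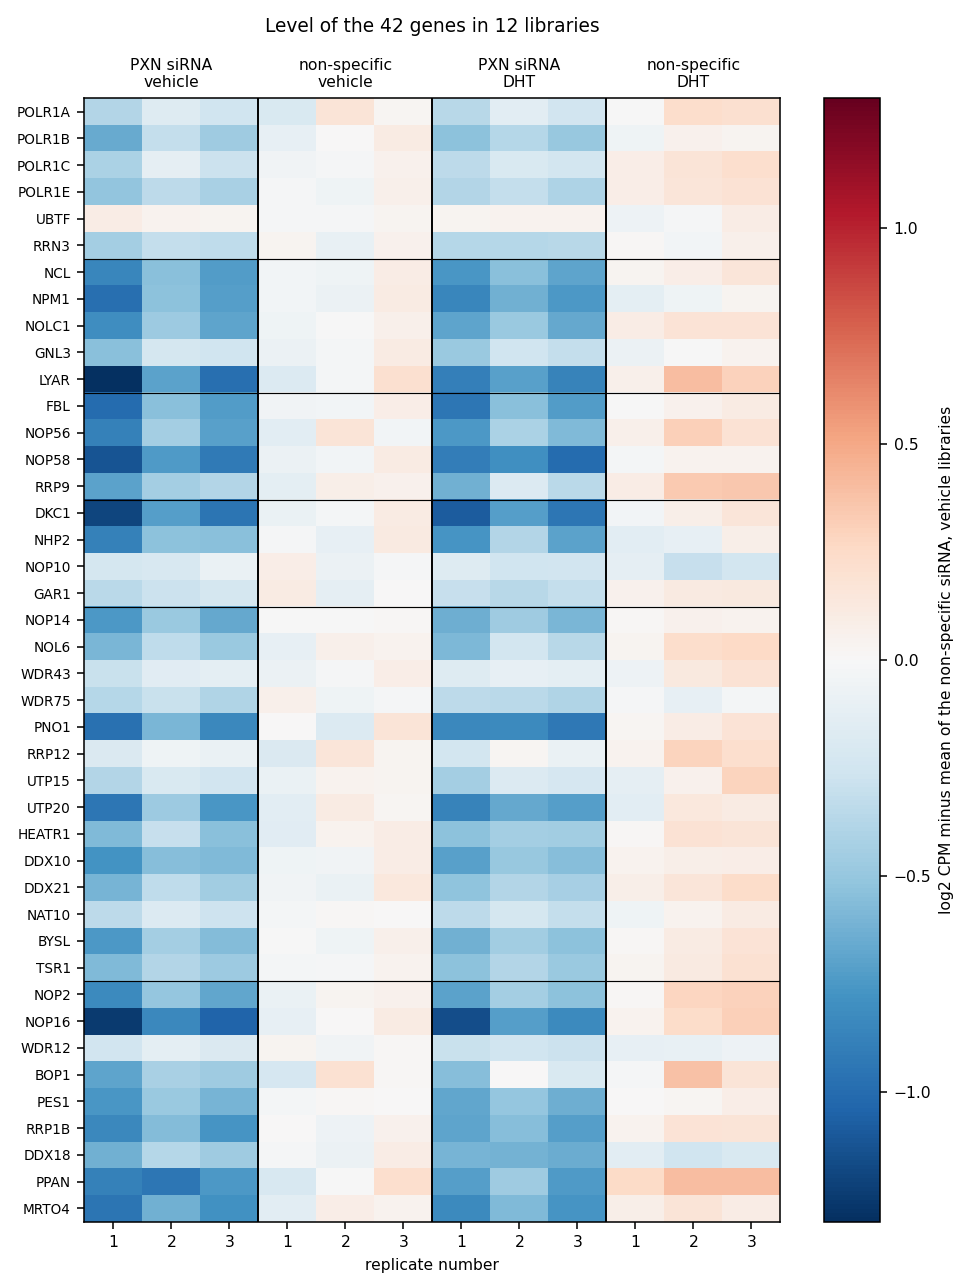
Each cell is 1 gene (vertical, by role) in 1 library (horizontal, replicates 1 to 3 of the 4 groups). Colour shows its log2 CPM minus the mean of the non-specific siRNA libraries with vehicle, blue below that mean and red above it. The values plotted run from -1.31 to 0.41, on a colour scale that reaches equally far on both sides. The PXN siRNA columns are blue for most genes, and the rows of UBTF, NOP10, RRP12, WDR12 and WDR43 are pale.

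Proliferation genes moved with the same groups. All 20 genes of a list of cell-cycle and replication markers fell under PXN siRNA, with medians of -1.80 under vehicle and -1.60 under DHT. Their summed level was 532 to 720.2 CPM with PXN siRNA and 1715 to 1864 CPM with non-specific siRNA under vehicle, and 597 to 720.2 CPM against 1853 to 1951 CPM under DHT. Within each PXN siRNA group, replicate 2 had the highest proliferation sum and the highest sum over the 42 genes. The order of replicates 1 and 3 did not follow in the same way. Under vehicle their proliferation sums were 531.8 and 534.7 CPM, with 3801 and 4242 CPM over the 42 genes. Under DHT their proliferation sums were 688.5 and 597.2 CPM, with 4017 and 4258 CPM over the 42 genes. Of the 10 LNCaP markers, 7 fell in each condition. The 9 tested markers of other cell types summed to 89.7 to 106 CPM with PXN siRNA and 51.2 to 61.9 CPM with non-specific siRNA under vehicle, and 3 rose and 2 fell. Under DHT they summed to 97.2 to 105 CPM with PXN siRNA and 51.1 to 64.0 CPM with non-specific siRNA, and 3 rose and 4 fell. VIM, a gene of mesenchymal cells, had the largest positive change of this list under vehicle, with 40.6, 24.3 and 29.9 CPM with PXN siRNA and 6.44, 4.22 and 3.999 CPM with non-specific siRNA. LUM, another mesenchymal gene of the list, had the largest fall of the list, -2.22 under vehicle and -1.70 under DHT, at a level under 1 CPM in every library. The part of proliferation, of these markers and of the mitochondrial share in the fall of the 42 genes was not tested.

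Other genes of the pathway, from lists drawn up with earlier results of these data known, were also more often lower than higher. Of 148 tested, 107 (72.3%) fell and 6 rose under vehicle with a median log2 fold change of -0.39. Under DHT 115 (77.7%) fell and 4 rose, with a median of -0.40. Whether the 42 genes differ from these 148 was not tested. By role under vehicle, 39 of 47 small subunit genes, 37 of 48 large subunit genes, 20 of 25 trimming nucleases and their cofactors, 6 of 11 snoRNP partners and 5 of 17 polymerase I genes fell. Under DHT the numbers were 42, 37, 20, 9 and 7. For the polymerase I genes the share lower was 29.4% under vehicle and 41.2% under DHT, against 38.3% and 39.5% of all genes of at least 5 CPM.

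TCOF1, the treacle protein of polymerase I transcription, had 25.4, 30.4 and 26.8 CPM with PXN siRNA and 50.8, 60.1 and 57.9 CPM with non-specific siRNA under vehicle, a log2 fold change of -1.03 (SE 0.0813) (edgeR adjusted p = 2.57e-07). RPF2, which brings the small 5S particle into the large subunit in yeast, had 50.5, 56.1 and 52.8 CPM with PXN siRNA and 113, 101 and 123 CPM with non-specific siRNA, a log2 fold change of -1.08 (SE 0.0821) (edgeR adjusted p = 1.91e-07). MAK16, another large subunit factor, had the largest fall of the pathway lists, at -1.49 under vehicle and -1.53 under DHT. Both RUVBL2 (-0.73), an ATPase of snoRNP assembly, and AATF (-0.54), a small subunit factor, fell under vehicle. The nuclease subunit POP7 did so too (-0.49). Against the direction of their lists, BAZ2A, which silences ribosomal DNA, rose by 0.37 on the log2 scale, and the helicase DDX47 by 0.62 at a level of at most 2.10 CPM in any library.

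**Figure D4:**
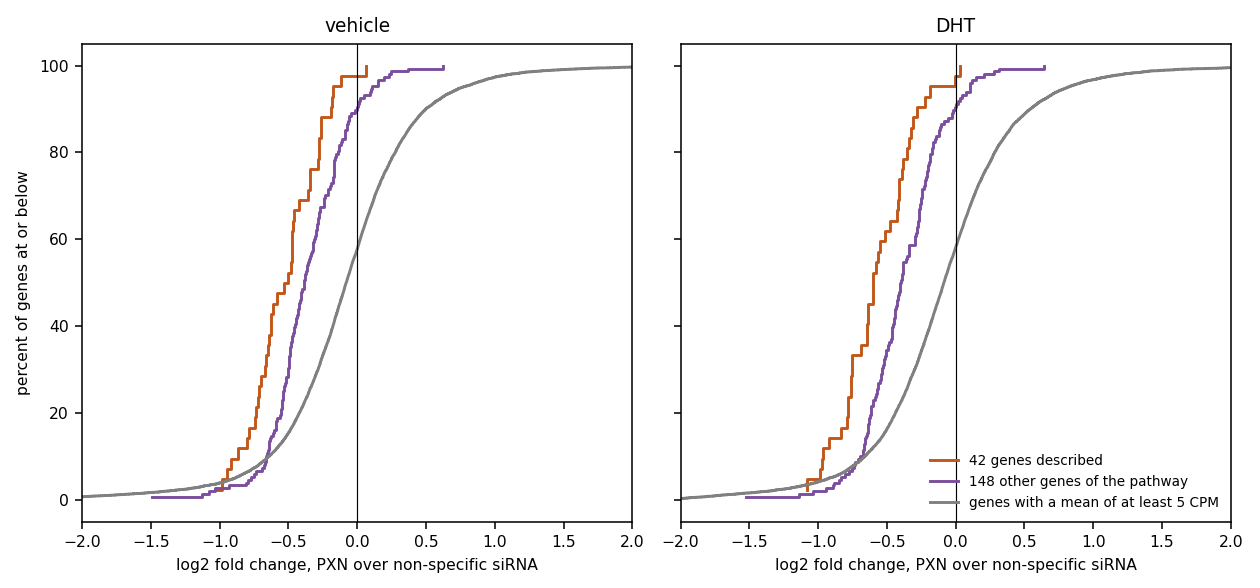
The cumulative percent of genes (vertical axis) at or below each log2 fold change of PXN siRNA over non-specific siRNA (horizontal axis) is drawn under vehicle (left) and DHT (right) for the 42 genes (orange), 148 other pathway genes (purple) and all genes averaging 5 CPM or more (grey). The medians are -0.52, -0.39 and -0.08 under vehicle and -0.60, -0.40 and -0.09 under DHT.

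MYC itself was lower with PXN siRNA. It had 98.9, 136 and 108 CPM with PXN siRNA and 259, 253 and 248 CPM with non-specific siRNA under vehicle. Under DHT it had 116, 148 and 115 CPM with PXN siRNA and 278, 275 and 273 CPM with non-specific siRNA. All 6 PXN siRNA libraries were below all 6 others, and the log2 fold change of MYC was -1.15 (SE 0.11) under vehicle (edgeR adjusted p = 1.29e-06) and -1.12 (SE 0.109) under DHT (adjusted p = 1.45e-06). Of 16 genes of its network (MYC itself, partners, antagonists and metabolic targets), 7 (43.8%) were lower and 4 (25%) higher under vehicle. Under DHT 6 (37.5%) were lower and 3 (18.8%) higher, and MYC is counted among the lower genes in both. These shares were near those of all genes of at least 5 CPM, of which 38.3% were lower and 23.4% higher under vehicle and 39.5% lower and 24% higher under DHT. The paralog MYCL rose by 0.47 under vehicle and 0.58 under DHT.

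The 17 genes with CACGTG in a window had a median log2 fold change of -0.58 under vehicle and -0.64 under DHT, and the 18 genes with a window but no match had -0.47 and -0.57. Over all tested genes with a window the medians were -0.06 with and -0.04 without the E-box under vehicle. The genes without a match include NOP16, at -1.03, and DKC1, at -0.95, and those with a match include WDR43, at -0.19. For the variant E-box CACGCG the medians in the 35 genes with a window ran the other way. They were -0.47 with and -0.60 without a match under vehicle and -0.56 and -0.64 under DHT. For the ETS core they were -0.47 and -0.62 under vehicle and -0.58 and -0.62 under DHT, and for the palindrome -0.47 and -0.54, and -0.58 and -0.62. Of the proliferation genes, the 4 with CACGTG had a median of -1.43 and the 12 without it -1.99 under vehicle. None of these differences was tested.

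RNA polymerase III, which makes the 5S and transfer RNAs, showed 11 of 21 genes lower and 2 higher under vehicle, and 13 lower and 1 higher under DHT. The shares lower were 52.4% and 61.9%, against 38.3% and 39.5% of all genes of at least 5 CPM. POLR3G, an alternative subunit, fell by 1.91 on the log2 scale under vehicle, the largest change of that list, and POLR3C rose by 0.80. Of 15 snoRNA host genes 8 (53.3%) fell and none rose in each condition, with the largest fall, -0.90 under vehicle, in SNHG3. GAS5, a host gene of many C/D snoRNAs, was at -0.19 (edgeR adjusted p = 0.203).

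Differences with DHT were small. With non-specific siRNA the main fit, which does not pair libraries by replicate number, called none of the 42. It called 4.87% of all tested genes (2.72% higher and 2.16% lower). In it KLK3, the classical androgen target, rose by 1.78 on the log2 scale (edgeR adjusted p = 0.000392). DESeq2 and limma-voom, also without this pairing, called none. At an unadjusted p under 0.05, PPAN, RRP9 and POLR1E were higher and NOP10 and DDX18 lower, 5 genes against 16.6% of all tested genes at that limit. The log2 fold change was above 0 for 35 genes and below 0 for 7, with a median of 0.09, against -0.01 over all tested genes. The groups were fully separated for 6 genes upward and 3 downward, against 10.2% and 10.1% of all tested genes.

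NOP10 and DDX18 had the smallest p. In the DHT libraries NOP10 had 142, 125 and 131 CPM, against 165, 147 and 152.6 CPM with vehicle, without overlap, a log2 fold change of -0.22 (SE 0.0666) (edgeR adjusted p = 0.0796). DDX18 (chr2:117814650-117832379, plus strand) had 128, 118 and 123 CPM with DHT and 139.6, 134 and 151 CPM with vehicle, also without overlap, at -0.20 (SE 0.0682) (edgeR adjusted p = 0.133). Neither passed the test. The largest positive value was that of PPAN, with 7.18, 7.97 and 7.93 CPM with DHT and 5.22, 6.004 and 6.99 CPM with vehicle, at 0.34 (SE 0.125) (edgeR adjusted p = 0.161).

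Libraries of the same number deviated together in this comparison. In 27 of the 42 genes DHT was higher than vehicle in all 3 numbered pairs, against 23.1% of all tested genes, in 9 it was higher in 2 pairs, in 1 it was higher in 1 pair, and in 5 it was lower in every pair, against 25.3% of all tested genes. In a fit that blocks on replicate number, 7 genes rose and 1 fell at an edgeR adjusted p under 0.05, against 6.17% and 5.93% of all tested genes. The 7 were NOP56 (log2 fold change 0.19, adjusted p = 0.015), RRP9 (0.26, adjusted p = 0.00391), NOL6 (0.17, adjusted p = 0.0278), RRP12 (0.18, adjusted p = 0.0195), NOP2 (0.20, adjusted p = 0.0172), BOP1 (0.18, adjusted p = 0.0405) and PPAN (0.34, adjusted p = 0.048). NOP10 was the one that fell, at -0.22 (adjusted p = 0.0109), and its log2 difference was -0.21, -0.23 and -0.22 in pairs 1, 2 and 3.

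With PXN siRNA, DHT gave no call among the 42 genes, against 0.184% of all tested genes, and no gene reached an unadjusted p under 0.05, against 7.46% of all tested genes. DESeq2 and limma-voom called none either, and none of these fits paired the libraries. The median log2 fold change was 0.02, with 29 genes above 0 and 13 below. BOP1 had 62.6, 92.1 and 79.8 CPM with DHT and 57.1, 68.3 and 66.3 CPM with vehicle, at 0.29 (SE 0.137) (edgeR adjusted p = 0.688), and DDX18 had 92.7, 92.2 and 90.02 CPM with DHT and 91.7, 109 and 103 CPM with vehicle, at -0.14 (SE 0.0686) (adjusted p = 0.702). Both overlapped between the groups. Within numbered pairs, DHT was higher in all 3 for 14 genes, in 2 for 14, in 1 for 13 and in none for 1, against 18.8% of all tested genes higher and 21.5% lower in all 3. With the replicate block BOP1 was called higher, at 0.28 (edgeR adjusted p = 0.0129), 1 gene against 1.35% of all tested genes. Full separation was seen upward for PPAN and downward for WDR12, against 7.02% and 6.6% of all tested genes.

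**Figure D5:**
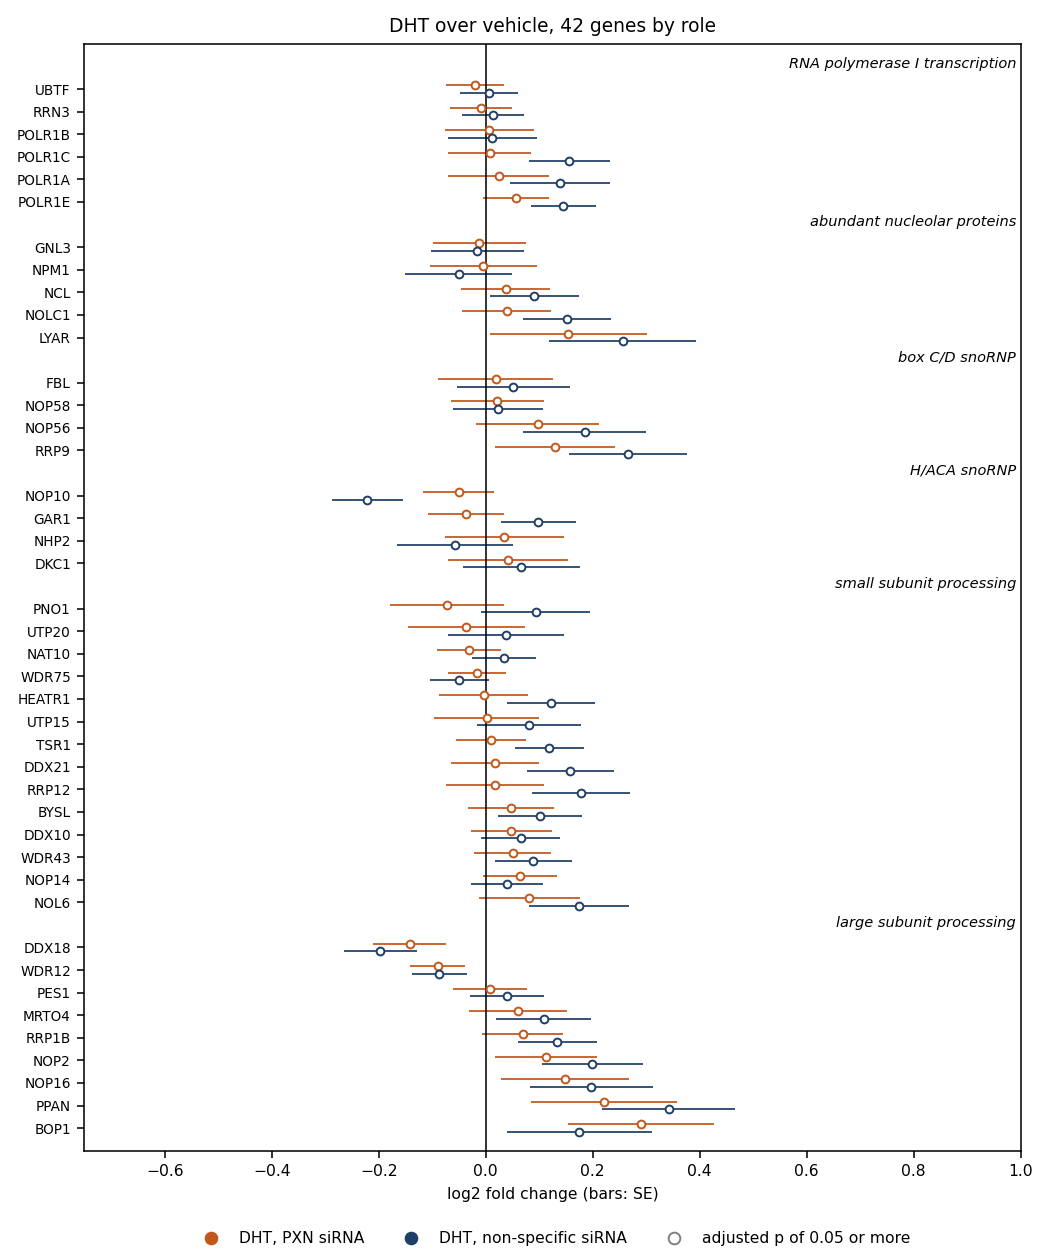
The log2 fold change of DHT over vehicle for each of the 42 genes is on the horizontal axis with its SE (bars), with PXN siRNA (orange) and with non-specific siRNA (blue), grouped by role. All points are open, as no adjusted p was under 0.05 in the main fit, which does not pair libraries. They lie between -0.22 (NOP10) and 0.34 (PPAN), both with non-specific siRNA.

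Whether DHT acted differently with the 2 siRNAs was asked with the interaction term. None of the 42 genes was called and no gene of the table was (0% of 18468 tested), and none of the 42 reached an unadjusted p under 0.05, against 4.21% of all tested genes. DESeq2, in which 41 of the 42 had an adjusted p, and limma-voom called none of the 42. Over all tested genes the interaction had 18 higher and 40 lower calls with the replicate block, 3 and 34 with the DESeq2 Wald test, 2 and 33 with no filter and 10 and 35 without non-specific siRNA DHT replicate 1, none of them among the 42. The smallest p belonged to NOP10, at 0.17 (SE 0.0941), and POLR1C, at -0.15 (SE 0.108), both with an edgeR adjusted p of 1. POLR1C had 29.4, 32.6 and 31.8 CPM with PXN siRNA and 39.6, 41.9 and 43.6 CPM with non-specific siRNA under DHT, and 28.0, 34.6 and 30.8 CPM against 36.3, 37.0 and 38.9 CPM under vehicle. The median interaction over the 42 genes was -0.05, against 0.01 over all tested genes, and 34 values were below 0. A p that misses the threshold does not show that the responses were alike.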

How the data were processed

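RNA of 12 LNCaP libraries, 3 in each of 4 groups defined by the labels, was sequenced as stranded mRNA libraries. The authors deposited 1 table of raw counts per gene symbol, with no normalization. Per the submitters' processing notes, Trimmomatic 0.32, STAR 2.4.2a, Subread 1.5.0p3 with featureCounts and the GRCh38 build were used, and no source used here states the strand option. Whole counts entered edgeR 4.0.16 (R 4.3.3, limma 3.58.1): TMM scaling, edgeR's filter on low counts over the 4 groups (18468 of 36137 symbols kept), and 1 quasi-likelihood fit of 4 group means with 8 residual degrees of freedom. Adjusted p-values are Benjamini-Hochberg values over all tested genes, with a threshold of 0.05, and an SE is the absolute log2 fold change over the square root of its F. The main fit was also run on simulated counts, with changes added to few genes of the PXN siRNA vehicle group, up and down alike. That setting does not probe the scaling when many genes change, as with PXN siRNA here. Positions and exon lengths come from GENCODE 29 (GRCh38), promoter windows from RefSeq.

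The 42 genes, the role groups and the other lists were chosen with earlier results of these data known. Values in every library are given for the 2 genes of each role with the smallest p under PXN siRNA with vehicle and for the 2 with the smallest p in each DHT comparison and in the interaction, for MYC, and for genes chosen after their values were seen (UBTF, RRP12, NOP16, PPAN and VIM). Of each other list, genes with the smallest p are named, and the extremes (MAK16, POLR3G, MYCL, BAZ2A, DDX47) and GAS5 were picked after their values were seen.

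Replicate numbers are in the labels. Deviations of same-numbered libraries from their group means correlated across all tested genes with r of 0.121 to 0.21 in the vehicle comparison of the siRNAs. The r was 0.145 to 0.383 for the DHT response under non-specific siRNA and 0.1 to 0.307 for that under PXN siRNA. The numbers were therefore taken to pair these libraries, but the main fit did not use the pairing. Only the fit with a block on replicate number did. For PXN siRNA under DHT r was 0.0769 to 0.284, below the limit of 0.1 in replicate 3, and no pairing was taken for this comparison. Among genes averaging 5 CPM or more, r in this comparison was 0.226 to 0.557. The block was fitted over all 12 libraries, so its results for PXN siRNA under DHT also use the replicate numbers. Alternatives were DESeq2 1.42.0 (size factors and Wald test), upper-quartile scaling, limma-voom, no filter, a mean of at least 1 CPM, a fit of the compared groups alone, a block on replicate number, a threshold of 0.01, and leaving out each library. No protein sequence was used here.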

Additional observations from a re-analysis of the deposited data

How the results depend on the processing

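Of the 42 genes, at least 34 were called lower with PXN siRNA in each comparison under every alternative run, and none higher except UBTF under upper-quartile scaling. Leaving out 1 library at a time gave 36 to 40 lower genes under vehicle and 38 to 40 under DHT, with none higher, and medians of -0.59 to -0.46 and -0.67 to -0.58. At an adjusted p under 0.01, 36 and 37 genes were lower. Upper-quartile scaling gave 34 and 36 lower genes and 1 higher gene, UBTF, in each, with the median of all tested genes at 0.12 under vehicle and 0.13 under DHT, against 0.02 and 0.03 with TMM. The medians of the 42 genes were then -0.42 and -0.50. For DHT with non-specific siRNA, upper-quartile scaling gave 1 lower gene, NOP10, and leaving out 1 library gave 0 to 1 lower genes. That call, also NOP10 (log2 fold change -0.27, adjusted p = 0.036), came without non-specific siRNA DHT replicate 1, and the medians ran from 0.06 to 0.14. The replicate block gave 7 higher and 1 lower genes there, and 1 higher gene, BOP1, for DHT with PXN siRNA. It left 40 lower genes in both PXN siRNA comparisons and no call in the interaction. Leaving out 1 library, the median ran from -0.03 to 0.09 for DHT with PXN siRNA, below 0 without PXN siRNA vehicle replicate 1 or PXN siRNA DHT replicate 2. For the interaction it ran from -0.13 to 0.02, above 0 without PXN siRNA vehicle replicate 2. Over 21 alternative settings, the calls that most often missed the threshold were NOP10 (11), WDR43 (8), UTP15 (5) and POLR1A (4) under vehicle, and RRP12 and BOP1 (4 each) under DHT. The cause was not tested for any of these. DESeq2 size factors, the DESeq2 Wald test, limma-voom, the other filters and the fit of the compared groups alone gave 38 to 40 lower genes in both PXN siRNA comparisons and no call for DHT. Those of them that fit all 4 groups gave none of the 42 in the interaction. The shallowest of the 42 genes, PPAN, had 117 counts in its lowest library.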
